A study of Mus musculus with 30 samples.

Results

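The ESCRT (endosomal sorting complex required for transport) and extracellular vesicle genes were taken as a list of 39 genes. The list held the ESCRT-0 to ESCRT-III subunits, the VPS4 and ALIX proteins, and vesicle cargo and release genes. Of these, 37 were matched by gene identifier among the 47643 genes of the table, and Chmp1b and Vps28 were not analysed here. Of the 37, 36 passed the filter on low values (a mean of at least 0.1 FPKM, fragments per kilobase of transcript, scaled to library size) and were among the 16897 genes tested. Rab27b, a vesicle docking GTPase, was the gene that did not pass, at 0 in 19 of 30 libraries.

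RNA-seq was made from microglia, the resident macrophages of the brain, sorted from 3 month-old mice. Each of the 30 libraries came from 1 mouse. Mice with both Bin1 alleles floxed and Cre expressed from the Cx3cr1 locus (Bin1 flox/flox::Cx3Cr1-Cre+, called Homo) numbered 5 males (Homo-M) and 5 females (Homo-F). Mice with 1 floxed allele and the same Cre (Bin1 wt/flox::Cx3Cr1-Cre+, called Het) numbered 6 males (Het-M) and 5 females (Het-F), and WT littermates numbered 5 males (WT-M) and 4 females (WT-F). The study gives the WT genotype as Bin1 wt/flox without Cre, so these mice also carry a floxed allele. The Cre sits in the Cx3cr1 gene, so loss of Bin1 and loss of a Cx3cr1 copy cannot be told apart in the comparisons with WT. Cx3cr1 had a median of 1088 FPKM in the 21 Cre-positive libraries and 2068 FPKM in the 9 WT libraries. It was 13.9 FPKM in the library labelled Het-F-0206, and between 610.0 and 1243 FPKM in the other 20 Cre-positive libraries.

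Bin1 itself lay between 230 and 290 FPKM in WT-M and WT-F, between 39.5 and 55.6 FPKM in Homo-M and Homo-F, and between 117 and 164 FPKM in 9 of the 11 Het libraries. The libraries labelled Het-F-0206 (42.7 FPKM) and Het-M-0199 (51.8 FPKM) had Bin1 in the range of Homo. The microglial genes were high in every library (summed level of 10 genes from 19746 to 28417 FPKM). The summed level of 5 lymphocyte genes ran from 0 to 0.670 FPKM. Of these, Cd3e was at 0 in all 30 libraries, and Cd3d was at 0 in 16 and reached 0.176 FPKM. The summed level of 8 neutrophil genes ran from 43.9 to 349 FPKM in WT-M and from 0 to 80.8 FPKM in Homo-M. Choroid plexus genes had a median sum of 71.8 FPKM in WT-M and 11.3 FPKM in Homo-M, and border macrophage genes 35.8 and 20.0 FPKM. Neuron genes (3.26 and 5.32 FPKM) and oligodendrocyte genes (28.8 and 34.2 FPKM) were higher in Homo-M, and these ranges all overlapped. The sum of 6 nuclear long noncoding RNAs, mostly Malat1, ran from 2951 to 5781 FPKM in WT-M and from 5426 to 11645 FPKM in Homo-M. Mouse numbers in the labels fell into an early range (6 libraries: 3 Homo-M, 2 Het-M and 1 WT-F) and a late range (24 libraries). No WT-M mouse had an early number, so number range and genotype were partly mixed in males. What the number range stands for is not given in the sources used here. The methods of the study state a single depth for its samples. The FPKM hold no read totals, so the depth of each library is unknown and no counting error is given. In such bulk samples, fewer cells of a type and less RNA per cell cannot be told apart.

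ESCRT complexes act in sequence on the endosome. ESCRT-0 gathers ubiquitinated cargo, ESCRT-I and ESCRT-II deform the membrane, ESCRT-III filaments cut the neck of the inward bud, and the ATPase VPS4 takes the filaments apart. Vesicles inside such a multivesicular body can be released as exosomes when it fuses with the plasma membrane, with tetraspanins as cargo and Rab GTPases guiding release.

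Promoter sequence is shown for the gene of this list that differed with Cre (Mvb12b) and for the ESCRT-III gene that the study itself singled out (Chmp4b). Each is the 250 bases before a RefSeq start (GRCm38.p6), read 5′ to 3′ on the strand of the gene, at chr2:33887947-33888196 (minus strand) and chr2:154656776-154657025 (plus strand). The Chmp4b window lies inside the annotated gene, whose first transcript starts further upstream, and 8 of its bases are annotated as exon.
Mvb12b: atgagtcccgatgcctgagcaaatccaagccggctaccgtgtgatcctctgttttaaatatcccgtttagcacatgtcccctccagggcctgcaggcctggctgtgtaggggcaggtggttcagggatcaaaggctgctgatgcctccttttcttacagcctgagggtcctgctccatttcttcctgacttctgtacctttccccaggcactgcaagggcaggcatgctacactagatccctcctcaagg
Chmp4b: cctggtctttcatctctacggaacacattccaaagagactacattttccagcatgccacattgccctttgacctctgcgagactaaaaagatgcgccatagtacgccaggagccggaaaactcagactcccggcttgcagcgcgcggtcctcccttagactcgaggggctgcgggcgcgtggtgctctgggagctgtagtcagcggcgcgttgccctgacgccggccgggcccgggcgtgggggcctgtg
Neither stretch held CACGTG, GAANNTTC or CCAAT on either strand, so no letters are in capitals. CACGTG was in 2 of the 31 windows searched for 28 members (those of Pdcd6ip and Rab27a), against 6.02% of all 32851 windows. GAANNTTC was in 0 of the 31, against 6.69% of all windows, and CCAAT in 7 of the 31, against 33.8%. The FPKM do not bear on binding at these sites.

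Levels spanned from Cd81 at a mean of 1713 FPKM to Rab27b at 0.0261 FPKM over the 30 libraries. The 4 highest were vesicle cargo genes: Cd81, Cd9 (1296 FPKM) and Cd63 (429 FPKM), which are tetraspanins, and Sdcbp (287 FPKM), which encodes syntenin, an adaptor that binds ALIX. The other release genes were Rab11a (114 FPKM), Rab27a (13.7 FPKM) and Rab35 (12.9 FPKM), GTPases of vesicle traffic, and Smpd3 (0.263 FPKM), a sphingomyelinase that makes ceramide.
Among ESCRT-0 genes, the mean was 25.3 FPKM for Hgs, 19.9 FPKM for Stam and 15.9 FPKM for Stam2. In ESCRT-I, Tsg101 (60.8 FPKM), the ubiquitin-binding core subunit, was followed by Vps37b (41.7), Ubap1 (31.2), Mvb12b (22.9), Mvb12a (16.5), Vps37c (14.2) and Vps37a (11.9 FPKM). ESCRT-II ran from Snf8 (153 FPKM) over Vps25 (60.5 FPKM) to Vps36 (10.4 FPKM).
In ESCRT-III, Chmp2a (70.5 FPKM), Chmp1a (55.4), Ist1 (54.8), Chmp3 (42.8), Chmp5 (38.7), Chmp6 (35.3), Chmp2b (26.1) and Chmp7 (24.5 FPKM) lay above the Chmp4 genes, which encode the main filament subunits. Chmp4b was at 4.15 FPKM, 34th of the 37 members and at the 46.9th percentile of all genes tested, and Chmp4c at 0.410 FPKM. VPS4 and ALIX genes lay close together, with Vta1 (48.2 FPKM), Vps4b (42.6), Pdcd6ip (33.2 FPKM, which encodes ALIX), Pdcd6 (29.1) and Vps4a (26.8 FPKM).

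**Figure D1:**
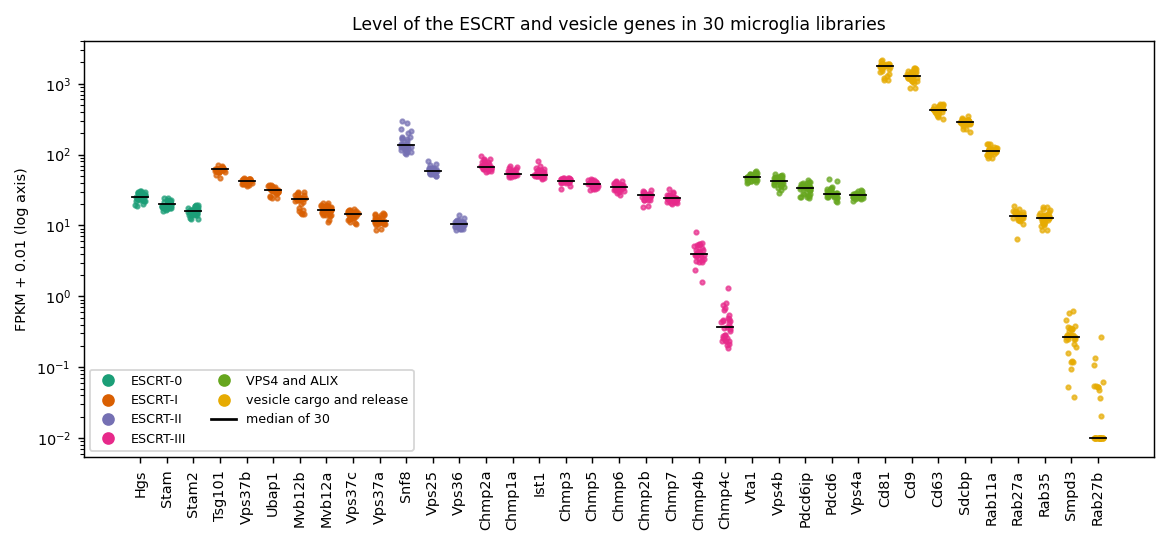
Level of 37 ESCRT and vesicle genes in 30 libraries, as FPKM plus 0.01 on a log axis, with 1 point per library, coloured by complex, and a black line at the median. The tetraspanins Cd81, Cd9 and Cd63 lie highest, and Chmp4c, Smpd3 and Rab27b lie below 1.5 FPKM in every library.

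Mvb12b, an ESCRT-I subunit that binds ubiquitin, was higher in most Cre-positive libraries. In WT-M it was 14.3, 20.2, 23.3, 16.3 and 23.4 FPKM. In Het-M it was 29.7, 24.5, 23.6, 27.3, 23.9 and 24.0 FPKM, and in Homo-M 29.1, 24.5, 24.2, 28.1 and 23.4 FPKM. In unscaled FPKM every Cre-positive male library lay above every WT-M library, at 23.386 FPKM (lowest Homo-M) against 23.373 FPKM (highest WT-M). The fits divided FPKM by scale factors of 0.954 to 1.02 in WT-M, 0.952 to 1.15 in Het-M and 0.978 to 1.11 in Homo-M. The factors were 0.965 for WT-M-0178 (23.3 FPKM), 1.10 for Het-M-0203 (23.9 FPKM) and 1.10 for Homo-M-0109 (24.2 FPKM). Division by them puts WT-M-0178 above the other 2, so this order did not hold after scaling.
In WT-F it was 17.8, 21.2, 15.1 and 14.7 FPKM, in Het-F 24.8, 25.0, 22.7, 30.0 and 26.6 FPKM and in Homo-F 23.9, 23.1, 24.2, 22.3 and 16.1 FPKM. All 5 Het-F libraries lay above WT-F, while Homo-F-0238 lay inside the WT-F range. The log2 fold change against WT of the same sex was 0.34 (SE 0.13, adjusted p = 0.132 by limma) in Homo-M, 0.33 (SE 0.13, adjusted p = 0.284) in Het-M, 0.35 (SE 0.14, adjusted p = 1) in Homo-F and 0.59 (SE 0.14, adjusted p = 0.107) in Het-F. None of these passed the threshold.
The mean of the 4 Cre-positive groups against the mean of both WT groups was compared after these values were seen. Mvb12b then differed by 0.40 (SE 0.085, 95% interval 0.23 to 0.58, adjusted p = 0.0102 by limma). In unscaled FPKM, 17 of 21 Cre-positive libraries lay above the highest WT library. The count was not made on the scaled values of the fit, where some of the 17 (Het-M-0203 and Homo-M-0109 among them) lay below WT-M-0178. Mvb12b was the 1 of 36 members at an adjusted p below 0.05, against 1.44% of all genes. Its change was under the 1.5-fold threshold, which 0 members and 0.823% of all genes passed. With number range fitted as a covariate the difference was 0.41 (adjusted p = 0.00874) and in the late mice alone 0.43 (adjusted p = 0.0428). Without Het-F-0206 and Het-M-0199 it was 0.40 (adjusted p = 0.0192). Leaving out single libraries gave 0.35 to 0.46, with adjusted p from 0.00349 to 0.0397. In this contrast loss of Bin1 and the Cre allele cannot be told apart, and Homo-M and Het-M differed by 0.01 (SE 0.13, adjusted p = 0.998). Homo-F was lower than Het-F by a log2 difference of -0.24 (SE 0.13, 95% interval -0.52 to 0.03, adjusted p = 1 by limma), which did not pass the threshold.

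Cd9, a tetraspanin cargo of vesicles, was next. In WT-M it was 1088, 877, 870.0, 1443 and 1204 FPKM, in Het-M 1204, 1244, 1173, 1494, 1640.5 and 1527 FPKM and in Homo-M 1111, 1441, 1690.5, 1489 and 1619 FPKM. Male groups overlapped, with WT-M-0202 and WT-M-0258 among the Cre-positive values. In WT-F it was 1155, 1019, 1127 and 1109.6 FPKM, in Het-F 1391, 1675, 1258, 1338 and 1099 FPKM and in Homo-F 1342, 1434, 1333, 1275 and 1207 FPKM. All Homo-F libraries lay above WT-F, and Het-F-0257 lay within WT-F. The log2 fold change was 0.35 in Homo-M, 0.27 in Het-M, 0.25 in Homo-F and 0.28 in Het-F, each against WT, with adjusted p by limma of 0.151, 0.372, 1 and 1.
Over all Cre-positive groups the difference was 0.29 (SE 0.093, adjusted p = 0.123). With number range fitted as a covariate it was 0.32 (adjusted p = 0.0458), where 1.62% of all genes and 2 members had an adjusted p below 0.05, and in the late mice alone 0.37 (adjusted p = 0.0306), where 1.13% of all genes and the same 2 members did.

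**Figure D2:**
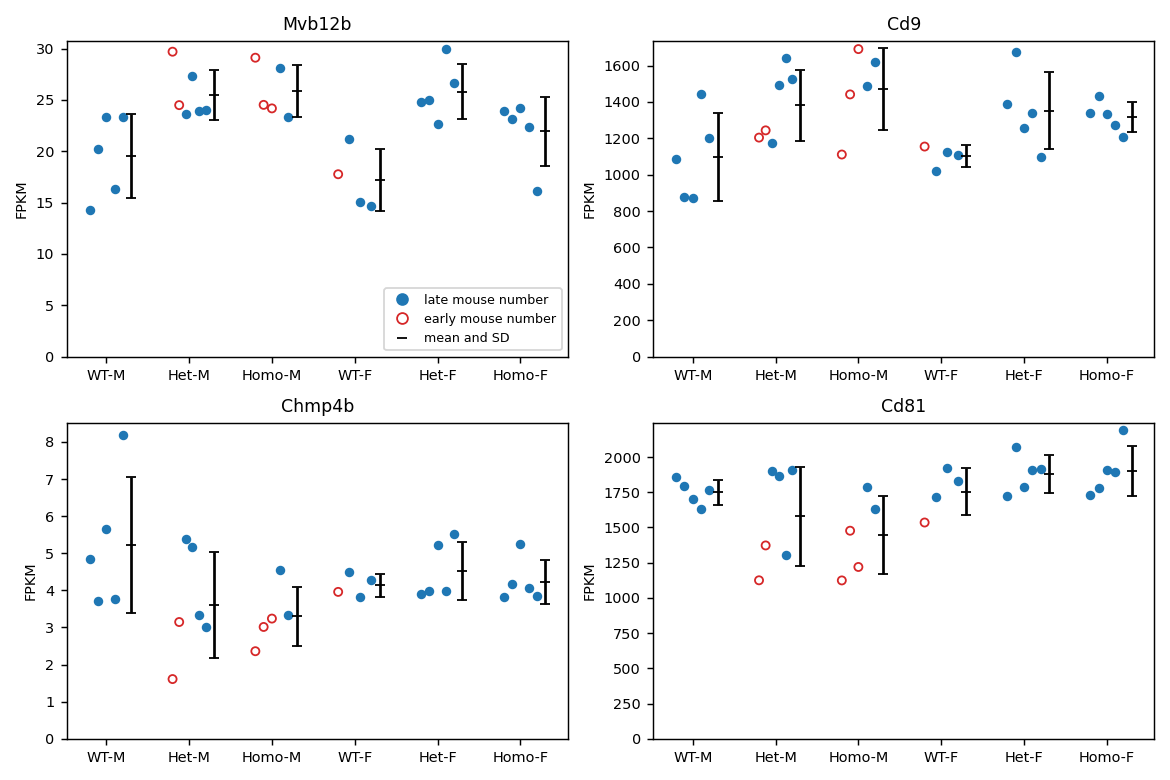
FPKM of Mvb12b, Cd9, Chmp4b and Cd81 in each of the 30 libraries by group, with filled blue points for late and open red points for early mouse numbers, and the mean with SD beside each group. Mvb12b is higher in most Cre-positive libraries before scaling, and the low male values of Chmp4b and Cd81 include the early numbered mice.

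In Homo-M against WT-M, 0 of 36 members passed an adjusted p below 0.05 with a fold change above 1.5, where 1.81% of all genes did. At an unadjusted p below 0.05 stood 11 of 36 members (30.6%), against 22.5% of all genes. Of these, 9 were lower in Homo-M (Hgs, Ubap1, Vps25, Vps36, Chmp4b, Chmp7, Vps4b, Cd81 and Rab35) and 2 higher (Mvb12b and Cd9). The median log2 fold change over the members was -0.15 (SD over libraries 0.10), with 26 of 36 below 0, beside 0.03 over all genes tested, of which 46.2% were below 0. Leaving out single libraries gave a median of -0.19 (without Homo-M-0189) to -0.082 (without Homo-M-0093), and no scaling gave -0.065. The ranges of 1 member (Mvb12b) did not overlap before scaling, against 3.94% of all genes.

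By role, all 3 ESCRT-0 genes, 4 of 7 ESCRT-I genes, 2 of 3 ESCRT-II genes, 8 of 10 ESCRT-III genes, 3 of 5 VPS4 and ALIX genes and 6 of 8 tested cargo and release genes had a value below 0 in Homo-M. The medians of the 6 roles lay between -0.26 and -0.11.

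Hgs, the ESCRT-0 subunit that binds ubiquitinated cargo, was 28.7, 30.2, 28.4, 23.7 and 22.2 FPKM in WT-M and 22.3, 24.2, 18.8, 24.1 and 20.2 FPKM in Homo-M. The ranges overlapped, and the log2 fold change was -0.36 (SE 0.12, adjusted p = 0.0894 by limma). Het-M was 26.6, 22.2, 26.1, 24.6, 19.6 and 22.8 FPKM. The female libraries were 23.7, 29.2, 29.2 and 26.6 FPKM in WT-F, 22.8, 26.8, 25.6, 26.1 and 30.2 FPKM in Het-F and 24.3, 24.2, 26.9, 28.5 and 30.3 FPKM in Homo-F, with female groups overlapping throughout.

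Chmp4b, an ESCRT-III filament subunit, was picked by the study on these same samples, so its direction is not independent evidence. The study reported it as lower in Homo-M, with DESeq2 on counts. Chmp4b did not pass the threshold here, in the limma fit of FPKM with all libraries. It was 4.84, 3.71, 5.65, 3.76 and 8.18 FPKM in WT-M, 1.61, 3.15, 5.40, 5.16, 3.33 and 3.01 FPKM in Het-M and 2.36, 3.01, 3.24, 4.54 and 3.34 FPKM in Homo-M. WT-M-0258 stood highest and the male groups overlapped. The log2 fold change was -0.70 (SE 0.26, 95% interval -1.22 to -0.17, adjusted p = 0.110 by limma) in Homo-M and -0.63 (SE 0.25, adjusted p = 0.284) in Het-M. The Het-M value was -0.40 (adjusted p = 0.560) without Het-M-0100 and -0.42 (SE 0.22, adjusted p = 0.665) with number range fitted as a covariate.
In females Chmp4b was 3.96, 4.50, 3.81 and 4.29 FPKM in WT-F, 3.89, 3.97, 5.23, 3.98 and 5.51 FPKM in Het-F and 3.83, 4.16, 5.26, 4.07 and 3.85 FPKM in Homo-F, and the log2 fold changes were 0.02 in Homo-F and 0.10 in Het-F. The test of the sex difference gave -0.72 (SE 0.37, adjusted p = 0.554) for Homo and -0.74 (SE 0.37, adjusted p = 0.860) for Het, so a difference between the sexes was not shown. The term for Homo was -0.18 with number range as a covariate. Without Homo-M-0189, Chmp4b passed the threshold (-0.84, adjusted p = 0.0472), as did 4.87% of all genes. Without WT-M-0258 it was -0.53, and with number range fitted as a covariate it was -0.31 (SE 0.25, adjusted p = 0.786).

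Chmp7, an ESCRT-III protein that also acts at the nuclear envelope, was 24.4, 27.3, 24.4, 28.9 and 24.0 FPKM in WT-M and 25.5, 21.4, 23.8, 20.1 and 21.4 FPKM in Homo-M, with overlap at Homo-M-0093. Het-M was 33.0, 24.9, 25.5, 21.3, 24.5 and 25.1 FPKM. The log2 fold change in Homo-M was -0.28 (SE 0.096, adjusted p = 0.0881 by limma), the sex by genotype term was -0.29 (SE 0.14, adjusted p = 0.536), and with number range fitted as a covariate the Homo-M value was -0.26 (adjusted p = 0.457). In females it was 20.5, 27.2, 26.7 and 24.7 FPKM in WT-F, 21.8, 24.5, 24.2, 20.6 and 24.8 FPKM in Het-F and 22.9, 24.2, 23.8, 23.8 and 29.7 FPKM in Homo-F.

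Vps4b, one of the 2 VPS4 ATPases, was 46.0, 52.0, 48.3, 40.3 and 34.4 FPKM in WT-M, 32.0, 41.2, 53.7, 37.3, 35.9 and 41.8 FPKM in Het-M and 33.8, 36.9, 28.4, 37.9 and 42.7 FPKM in Homo-M. The groups overlapped, and the log2 fold change in Homo-M was -0.38 (SE 0.15, adjusted p = 0.134 by limma), or -0.14 (adjusted p = 0.840) with number range fitted as a covariate. The female libraries were 37.9, 49.8, 49.7 and 45.8 FPKM in WT-F, 40.8, 49.3, 47.6, 45.5 and 43.2 FPKM in Het-F and 44.2, 41.7, 48.1, 44.7 and 47.0 FPKM in Homo-F.

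In Het-M against WT-M, 0 of 36 members passed the threshold, against 0.154% of all genes. At an unadjusted p below 0.05 stood 5 of 36 (13.9%), against 14.2% of genes tested. These were Mvb12b, Chmp4b, Smpd3, Rab35 and Hgs. The median was -0.10 (SD over libraries 0.11), with 25 of 36 below 0, beside 0.01 over all genes, of which 47.9% were below 0. The median was -0.053 without Het-M-0100, -0.051 with number range as a covariate and -0.028 with no scaling. The ranges of 1 member, Mvb12b, did not overlap before scaling, against 0.84% of all genes. Smpd3 was 0.242, 0.609, 0.449, 0.0834 and 0.277 FPKM in WT-M, 0.0281, 0.109, 0.259, 0.149, 0.108 and 0.237 FPKM in Het-M and 0.273, 0.260, 0.236, 0.0423 and 0.112 FPKM in Homo-M. In females it was 0.352, 0.361, 0.572 and 0.333 FPKM in WT-F, 0.241, 0.184, 0.367, 0.274 and 0.260 FPKM in Het-F and 0.334, 0.203, 0.277, 0.335 and 0.314 FPKM in Homo-F. At these low levels the groups overlapped in males, and the log2 fold change in Het-M was -0.77 (SE 0.34, adjusted p = 0.320 by limma) after 0.1 was added to each FPKM, which makes changes of low genes look smaller.

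In Homo-F against WT-F, 0 of 36 passed the threshold, against 0.071% of all genes, and 1 member (Mvb12b, 2.78%) had an unadjusted p below 0.05, against 3.49%. In Het-F against WT-F, 0 passed, against 0.13% of all genes, and 2 members (Mvb12b and Vps4a, 5.56%) had an unadjusted p below 0.05, against 3.95%. The medians were -0.01 (SD over libraries 0.034) and -0.05 (SD 0.032), or -0.042 and -0.10 with number range as a covariate. That covariate acts on the female comparisons only through WT-F-0122, the 1 female library with an early number. The ranges of 3 members did not overlap in Homo-F (Vps4a and Sdcbp below, Cd9 above), against 2.31% of all genes, and those of 3 in Het-F (Vps25 and Sdcbp below, Mvb12b above), against 2.21%.

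Sdcbp had a mean of 326 ± 19.9 FPKM (SD, n = 4) in WT-F, 280 ± 10.3 FPKM (n = 5) in Het-F and 295 ± 11.9 FPKM (n = 5) in Homo-F. Its log2 fold changes were -0.22 (SE 0.13) and -0.15 (SE 0.13), with an adjusted p of 1 by limma in both.
Vps4a was 28.3, 28.8, 31.0 and 31.7 FPKM in WT-F, 26.0, 26.0, 24.3, 25.0 and 30.7 FPKM in Het-F and 27.4, 28.3, 26.8, 27.5 and 27.4 FPKM in Homo-F, with Het-F-0257 inside the WT-F range, and 26.8, 27.1, 27.6, 23.9 and 27.8 FPKM in WT-M, 28.8, 26.4, 27.6, 24.4, 22.5 and 25.4 FPKM in Het-M and 24.5, 25.6, 25.6, 27.3 and 23.3 FPKM in Homo-M. Its log2 fold change in Het-F was -0.19 (SE 0.091, adjusted p = 1 by limma). Stam, which pairs with Hgs in ESCRT-0, was 22.3, 21.5, 21.5 and 24.3 FPKM in WT-F and 19.0, 18.5, 17.6, 21.8 and 20.1 FPKM in Homo-F, with overlap, and -0.21 (SE 0.13, adjusted p = 1). In the other groups Stam was 23.0, 17.4, 22.1, 17.7 and 22.0 FPKM in Het-F, 18.6, 20.1, 22.6, 19.9 and 17.0 FPKM in WT-M, 17.8, 18.9, 18.5, 16.4, 18.3 and 24.4 FPKM in Het-M and 19.9, 18.5, 16.0, 20.7 and 20.7 FPKM in Homo-M.

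**Figure D3:**
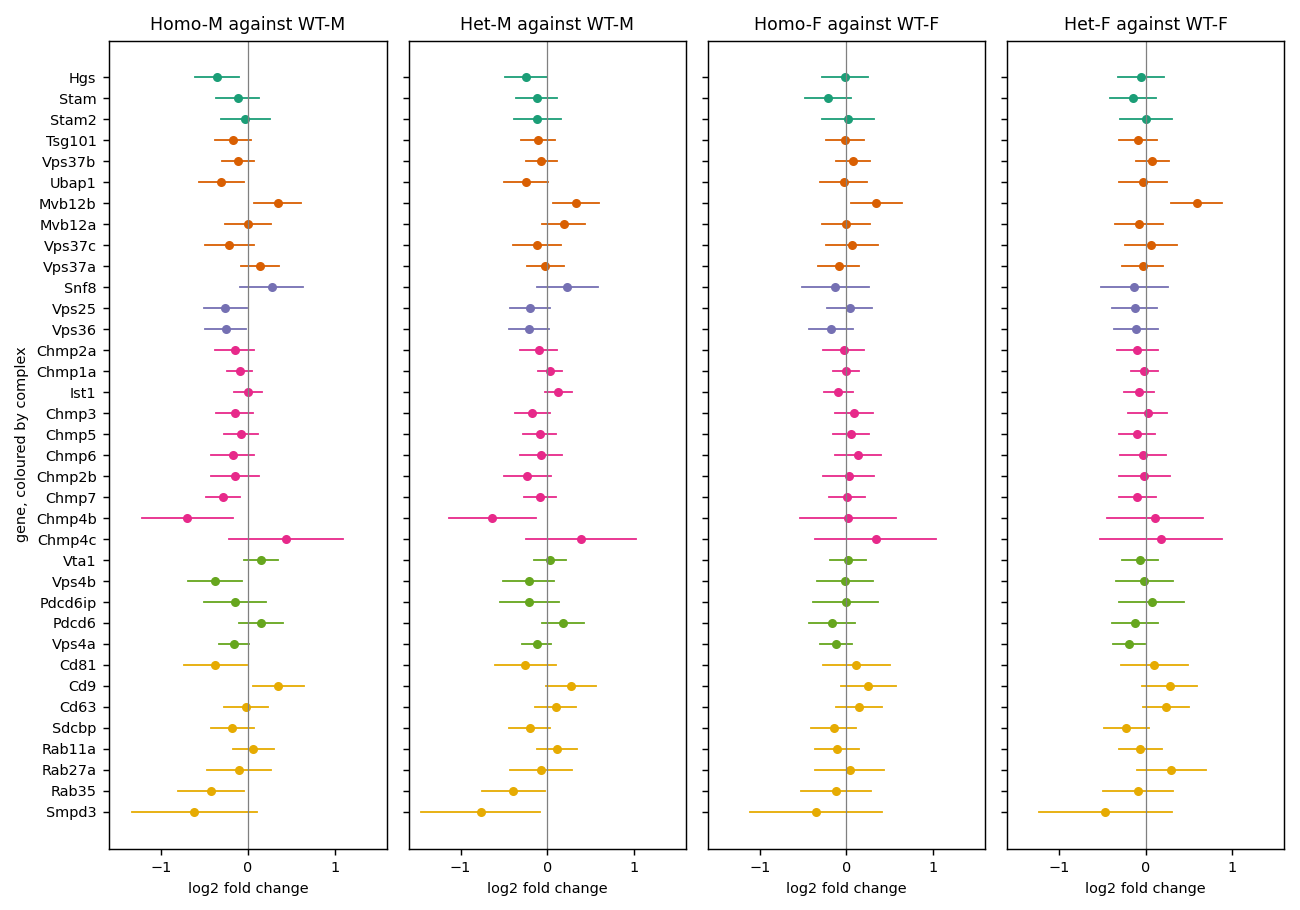
Log2 fold change of the 36 tested members in Homo-M, Het-M, Homo-F and Het-F, each against WT of the same sex, with 95% intervals, ordered and coloured by complex. No member passed the threshold in any panel, and Mvb12b and Cd9 lie to the right of 0 in all 4.

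Homo and Het were compared within each sex. In Homo-M against Het-M, 0 members and 0% of all genes passed, and 1 member (Chmp7, -0.20, SE 0.092) had an unadjusted p below 0.05, against 3.85% of all genes. In Homo-F against Het-F, 0 members passed, against 0.0118% of all genes. At an unadjusted p below 0.05 there were 0 members, against 2.06% of genes tested. For the sex by genotype term, 0 members and 0% of all genes passed in Homo and in Het. At an unadjusted p below 0.05 stood 1 member (Chmp7) for Homo, against 9.29% of all genes, and 0 for Het, against 4.53%.

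Cd81, the tetraspanin with the highest level, was among the 3 members with the smallest p of the sex by genotype term for Homo (-0.49, SE 0.26, adjusted p = 0.557 by limma), a value that was -0.039 with number range as a covariate. In WT-M it was 1861, 1791, 1699, 1632 and 1765 FPKM, in Het-M 1125, 1372, 1903, 1867, 1305 and 1906 FPKM and in Homo-M 1124, 1477, 1219.6, 1789 and 1628 FPKM. Both Cre-positive male groups reached further down than WT-M, and all groups overlapped. In WT-F it was 1535, 1719.9, 1923 and 1831 FPKM, in Het-F 1725, 2072, 1788, 1905 and 1914 FPKM and in Homo-F 1733, 1781, 1909, 1891 and 2189 FPKM.

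The number range moved with many members, a comparison also made after the values were seen. With genotype and sex in the same fit, 15 of 36 members (41.7%) differed between early and late mouse numbers at an adjusted p below 0.05, against 24.6% of all genes. With a fold change above 1.5 as well stood 1 member, Chmp4b, against 7.72% of all genes. Of the 15, 13 were lower in early mice (Tsg101, Ubap1, Vps25, Chmp2b, Chmp3, Chmp4b, Chmp6, Vps4b, Pdcd6ip, Sdcbp, Cd81, Rab35 and Rab11a), and Snf8 and Ist1 were higher.
Cd81 had the smallest adjusted p, with a log2 difference of -0.53 (SE 0.11, adjusted p = 0.00152 by limma), from 1124 to 1535 FPKM in the 6 early and from 1305 to 2189 FPKM in the 24 late libraries. Snf8, an ESCRT-II subunit, was higher by 0.49 (SE 0.13, adjusted p = 0.00623), from 168 to 295 FPKM in early and from 101 to 233 FPKM in late libraries. Chmp4b had a log2 difference of -0.64 (SE 0.19, adjusted p = 0.0160), from 1.61 to 3.96 FPKM in early and from 3.01 to 8.18 FPKM in late libraries.
Without Het-M-0100, the 15 members became 5, against 13.9% of all genes. In Cre-positive males alone, 8 members had an adjusted p below 0.05, against 15.9% of all genes, and Chmp4b (-0.80) and Cd81 (-0.61) also had a fold change above 1.5. The summed nuclear long noncoding RNAs ran from 4714 to 12885 FPKM in early and from 2605 to 8136 FPKM in late libraries. The summed microglial genes had a median of 22499 FPKM in early and 26819 FPKM in late libraries, the 5 oligodendrocyte genes 56.1 and 32.9 FPKM, and the 5 astrocyte genes 11.1 and 2.72 FPKM, all with overlapping ranges. The part of these measures in the result was not tested.

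With number range fitted as a covariate, the median over the members in Homo-M was -0.01 in place of -0.15, with 20 of 36 below 0. In that fit, 4 of 36 members (11.1%) had an unadjusted p below 0.05 in Homo-M against WT-M, against 8.74% of all genes. Of the 4, Mvb12b, Vta1 and Cd9 were higher and Chmp7 lower. In the late mice alone, with 2 Homo-M and 5 WT-M, the median was 0.02. There 6 members (16.7%) had an unadjusted p below 0.05, against 7.68% of all genes. Of the 6, Mvb12b, Vta1, Cd9 and Rab11a were higher, and Chmp7 and Smpd3 lower. In both fits, 0 members passed the adjusted threshold.

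**Figure D4:**
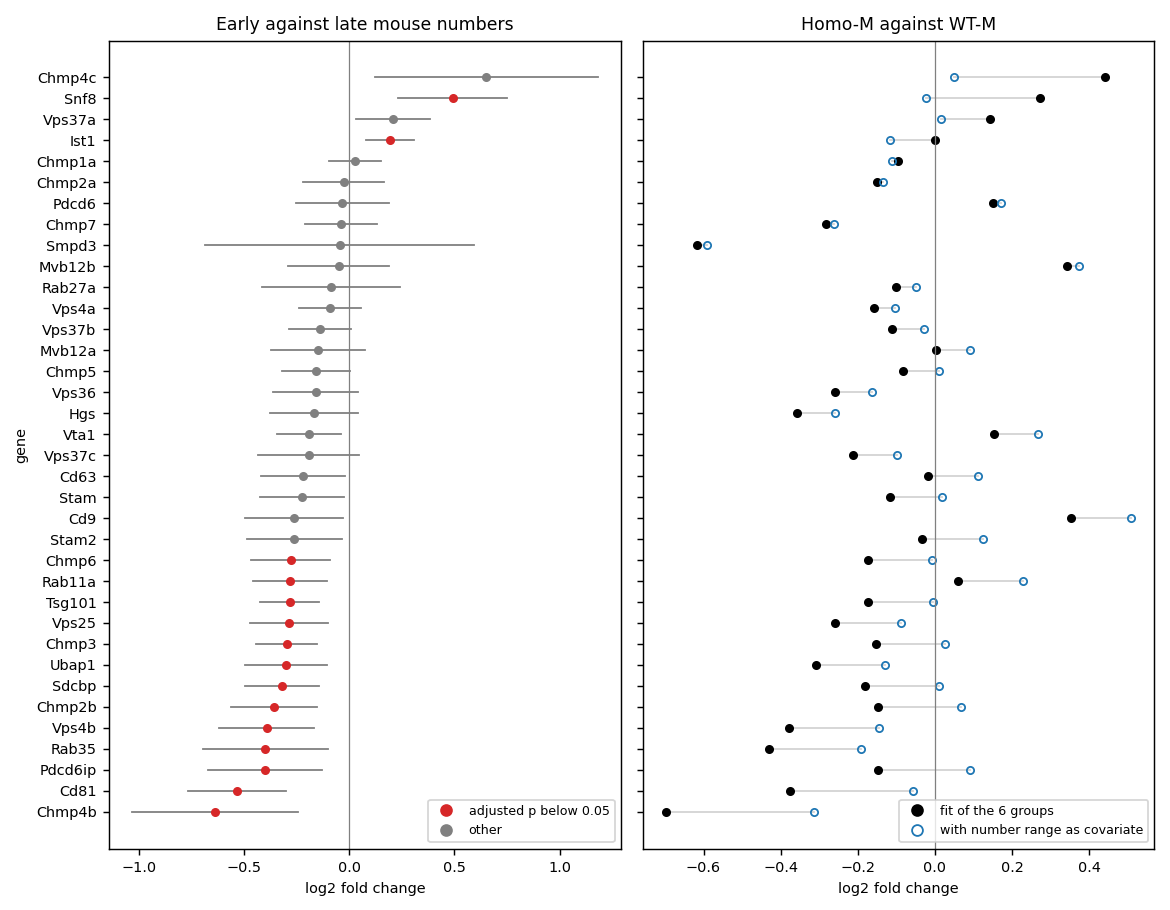
Left, log2 difference of the 36 members between early and late mouse numbers with 95% intervals, in red where the adjusted p was below 0.05. Right, the log2 fold change of the same genes in Homo-M against WT-M, in the fit of 6 groups (black) and with number range fitted as a covariate (blue), where most of the values below 0 move toward 0.

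Of 49 further ESCRT and vesicle genes, 44 were tested, and 0 passed the threshold in any comparison of genotypes. In Homo-M against WT-M, 14 were lower and 1 higher at an unadjusted p below 0.05 (34.1%, against 22.5% of all genes), with a median of -0.14. With number range as a covariate, 1 was lower and 1 higher (4.55%, against 8.74% of all genes), with a median of -0.052. The smallest p were those of Flot2, a lipid raft protein (-0.53, SE 0.15, adjusted p = 0.0537 by limma), Smpd1, the lysosomal acid sphingomyelinase (-0.45, SE 0.15, adjusted p = 0.0797), and Ralb, a GTPase (-0.33, SE 0.11, adjusted p = 0.0833). Of the 44, 22 differed with the number range at an adjusted p below 0.05, Smpd1 and Ralb among them.

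Transcripts of 11 members shared a stretch of at least 200 bases at 95% identity or more with another annotated gene (GENCODE M21), so their FPKM could hold or lose some reads. These were Cd63, Chmp1a, Chmp2a, Chmp3, Hgs, Sdcbp, Snf8, Stam2, Tsg101, Vps25 and Vps4b. Mvb12b (chromosome 2, 33729953 to 33887946, minus strand), Chmp4b (chromosome 2, 154651705 to 154694785, plus strand), Cd9 (chromosome 6, 125460266 to 125494791, minus strand) and Cd81 (chromosome 7, 143052739 to 143067934, plus strand; all GRCm38) had no such stretch.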

How the data were processed

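Microglia were sorted as CD11b+ CD45med cells, and RNA-seq libraries were made with SMARTer v4 and Nextera XT, per the methods of the study. The labels also describe cultured microglia, and the sorted design was followed. Reads were aligned with OSA4 to mm10 and quantified with RSEM. The deposited table holds FPKM, made by the authors for 47643 genes. Its 6 columns matched to no listed sample were not used. The study states that it removed 6 samples for few uniquely mapped reads and high duplication, which were also outliers. Whether the unmatched columns are those samples was not checked. DESeq2, used by the authors, needs counts and was not run.

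Libraries were scaled by median-of-ratios factors from genes above 0 in all libraries and averaging at least 1 FPKM. The log2(FPKM + 0.1) values of the 16897 genes with a mean of at least 0.1 FPKM were fitted with limma 3.58.1 in R 4.3.3, with all 6 groups and an intensity trend. The fit was tested on simulated data. P-values were adjusted (Benjamini-Hochberg) over all genes tested, and a call needed both a fold change above 1.5 and an adjusted p below 0.05. The 0.1 filter was first applied to scaled means and was set to deposited means after those results were seen; both are among the alternatives. Members and lists were chosen with earlier results of these data known. Values per sample are given for Chmp4b, the 5 members with the smallest p in Homo-M against WT-M, and the 3 with the smallest p in each other comparison with WT and in the sex by genotype term for Homo. Lists of marker genes were summed, and the ranges of groups were compared, as FPKM before scaling. Alternatives changed the pseudocount, filter, scaling, groups fitted, number range, library weights and libraries.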

Additional observations from a re-analysis of the deposited data

Results flagged for a closer look

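Of 60 groups of libraries (10 members by 6 groups), 8 held a library far from the others by Dixon's test, and chance gives about 1 in 20. Chmp4b was 5.26 FPKM in Homo-F-0228, against 3.83 to 4.16 FPKM in the other Homo-F libraries. Chmp7 was 33.0 FPKM in Het-M-0100 (others 21.3 to 25.5 FPKM) and 29.7 FPKM in Homo-F-0238 (others 22.9 to 24.2 FPKM). Mvb12b was 16.1 FPKM in Homo-F-0238, below 22.3 to 24.2 FPKM in the others. Smpd3 was 0.572 FPKM in WT-F-0200 (others 0.333 to 0.361 FPKM). Stam was 24.4 FPKM in Het-M-0210 (others 16.4 to 18.9 FPKM). Vps4a was 23.9 FPKM in WT-M-0202, below 26.8 to 27.8 FPKM, and 30.7 FPKM in Het-F-0257, above 24.3 to 26.0 FPKM. Homo-F-0238, flagged for Chmp7 and Mvb12b, also had the highest summed neuron genes in Homo-F (18.4 FPKM, group median 4.42 FPKM). Its astrocyte genes summed to 13.2 FPKM (median 3.05 FPKM) and its oligodendrocyte genes to 61.5 FPKM (median 37.0 FPKM). The 60 groups share libraries, so they are not independent. The cause was not tested.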

How the results depend on the processing

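All settings named among the methods were run for every comparison of genotypes. The added comparisons (Cre-positive against WT, early against late numbers, early against late in Cre-positive males, and the filter on scaled means) were chosen after seeing the data. No paired analysis was possible because mouse numbers are not shared between groups. In the 8 comparisons of genotype and sex by genotype, the number of members called stayed at 0 under every alternative, except 1 (Mvb12b) in Het-F against WT-F with array weights, and 1 (Chmp4b) in Homo-M against WT-M without Homo-M-0189. Leaving out single libraries gave 0 to 1 in that comparison. Members at an adjusted p below 0.05 in Cre-positive against WT were 1 in the fit reported, and 2 with no scaling, with array weights, with number range as a covariate and in late mice alone. For early against late numbers they were 15 in the fit reported, 9 with no scaling, 8 in Cre-positive males alone and 5 to 18 when single libraries were left out, with 5 without Het-M-0100 and 9 without Homo-M-0189. Chmp4b did not stay past the threshold there without either of these libraries (-0.42 and -0.59).

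With number range as a covariate, the median over the members was -0.015 in Homo-M, -0.051 in Het-M, -0.042 in Homo-F and -0.10 in Het-F, each against WT, and 0.015 in Homo-M in late mice alone. Chmp4b changed sign in Homo-F with number range as a covariate (-0.14), in late mice alone (-0.013) and when single libraries were left out (-0.064 to 0.068). It also did so in Het-F with number range as a covariate (-0.055). The covariate moves female comparisons only through WT-F-0122, the 1 female library with an early number, by a difference estimated mostly in males. The filter on scaled means changed no call. The cause of the other shifts was not tested. The depth of each library is unknown and the groups hold 4 to 6 libraries, which limits what differences could be seen.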
